A study of Mus musculus with 12 samples.

Results

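The 3 genes described here are Ins1 and Ins2, which encode the mouse insulins, and Iapp, which encodes islet amyloid polypeptide (amylin). They were taken by Ensembl identifier from a table of read counts for 38561 genes (ENSMUSG00000035804, ENSMUSG00000000215 and ENSMUSG00000041681), and all 3 passed the filter on low counts. RNA sequencing was done on pancreatic islets of 12 mice, 1 library per mouse, 3 per group, and the 4 groups combine 2 strain backgrounds with or without a transgene. NOD and NOD_insHEL mice were on the NOD/LtJ background, and B10 and B10_insHEL mice on C57BL/10SnSg. The insHEL mice carried Tg(ILK3mHEL)3Ccg, hen egg lysozyme driven by an insulin promoter, so the antigen is made by beta cells. All 12 mice, the controls without the transgene included, were Rag-/- (Ragtm1Mom) and therefore without mature B and T cells, carried the k haplotype of the MHC (BR-H2k), and were male, 11 weeks old and normoglycemic. Transcription was blocked with α-amanitin and actinomycin D while the islets were freed by collagenase, and between 20 and 137 islets were picked per library.

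Insulin is the hormone by which beta cells lower blood glucose. Mice have 2 nonallelic insulin genes: Ins2 is the ancestral copy and Ins1 arose from it by retroposition. Amylin is packed into the same secretory granules and released together with insulin, slows gastric emptying and limits food intake, and its human form, unlike the mouse one, aggregates into islet amyloid. Transcription of these genes in beta cells depends on E-box and A-box elements in their promoters, which bind Neurod1 with its E-protein partner Tcf3 and the homeodomain factor Pdx1. NOD mice develop autoimmune diabetes in which insulin is a main target of T cells, and the Rag-/- background removes the cells that carry out that attack.

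On GRCm38, Ins1 lies at chr19:52264297-52265476 on the plus strand, with 2 exons in a transcript of 1062 bases. Ins2 lies at chr7:142678656-142743381 on the minus strand, and the transcript taken for its length has 3 exons and 478 bases within 142678656 to 142679726. Iapp lies at chr6:142298423-142303961 on the plus strand, with 3 exons and 839 bases, and its whole span falls inside that of Slco1a5 (142234227 to 142322981) on the opposite strand. The promoters are shown because the levels of the 3 genes are the subject of every comparison here, and the elements above are found in them. RefSeq promoter entries were at hand for 2 of the 3 genes. Each line gives the 250 bases before the RefSeq start on GRCm38.p6, Ins1 at chr19:52264047-52264296 and Iapp at chr6:142298175-142298424, both on the plus strand. Capitals mark CATCTG, the E-box core, and TAAT or its reverse complement ATTA, the A-box core. The bases are those of the reference strain, and the NOD and C57BL/10SnSg alleles were not read.
Ins1: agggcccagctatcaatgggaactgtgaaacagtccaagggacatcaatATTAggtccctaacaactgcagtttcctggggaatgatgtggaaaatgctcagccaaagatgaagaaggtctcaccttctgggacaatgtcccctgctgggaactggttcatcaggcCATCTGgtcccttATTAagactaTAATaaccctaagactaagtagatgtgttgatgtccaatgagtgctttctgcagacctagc
Iapp: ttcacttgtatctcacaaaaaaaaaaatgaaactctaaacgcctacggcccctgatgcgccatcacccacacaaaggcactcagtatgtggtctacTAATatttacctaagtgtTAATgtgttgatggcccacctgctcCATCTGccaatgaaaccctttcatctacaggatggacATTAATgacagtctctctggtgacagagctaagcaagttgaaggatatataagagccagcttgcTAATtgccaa
Both promoters hold CATCTG once, on the plus strand, with its first base at position -84 relative to the start in Ins1 and -111 in Iapp. TAAT occurs 3 times in Ins1 and 5 times in Iapp on either strand, and 2 of the 5 overlap within ATTAAT. Of 32851 mouse promoter windows of this length, 14.4% hold CATCTG and 54.9% hold TAAT on either strand, so neither match singles these genes out, and a match is not a shown binding site.

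The transcripts of Ins1 and Ins2 are alike enough for reads to be shared. Aligned over 479 columns, the Ins2 transcript and the matching part of Ins1 were identical at 414 (86.4%), and the longest identical run was 56 bases. Of the 36-base windows of the Ins2 transcript, 35 of 443 also occur in Ins1, against 7 of 429 windows of 50 bases and 0 of 404 of 75 bases. Read length is not given in the sources used here, so the split of counts between Ins1 and Ins2 is uncertain by this margin. Slco1a5 had group means of 1.89 to 9.20 CPM, and the strand setting of the counting is not given either.

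Library totals ranged from 2212062 to 21138456 counts, and counting error was at most 0.467% of the value for any of the 3 genes in any library. All 15 acinar markers (digestive enzyme genes of the exocrine pancreas) passed the filter, and their summed share of counts set 4 libraries apart: 0.215 to 0.425% in the 3 B10 libraries and B10_insHEL replicate 2, against 0.00313 to 0.0234% in the other 8. The 3 B10 libraries are also the only ones numbered above 100 in the sample descriptions; if that marks a batch, it cannot be told apart from the B10 group. Levels below are CPM, read counts relative to the TMM-scaled library total, and differences are log2 values from edgeR's quasi-likelihood test with Benjamini-Hochberg adjustment over 15352 genes and a threshold of 0.05.

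The 3 genes took between 18.5% of all counts (B10 replicate 2, exact 95% binomial interval 18.4 to 18.5%) and 27.6% (NOD_insHEL replicate 3, 27.6 to 27.7%). Ins2 was the most abundant gene in all 12 libraries, with 11.1 to 17.5% of counts, and Ins1 was second in all 12, with 4.50 to 8.01%. Iapp held 1.76 to 3.60% and had rank 3 or 4, trading places with the glucagon gene Gcg. Per kilobase of transcript the order Ins2 above Ins1 above Iapp held in 12 of 12 libraries: CPM per kilobase of Ins2 was 4.49 to 6.49 times that of Ins1, and Ins1 was 1.03 to 3.52 times Iapp. With lengths restricted to the RefSeq spans the same ratios were 2.54 to 3.67 and 1.51 to 5.15. Ins1 and Iapp are therefore close per length in some libraries, and Ins2 exceeds both in each.

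Iapp was lower in NOD background with and without the transgene, while Ins1 was called higher without it but not within transgenic islets. Ins1 stood at 42977, 44643 and 43982 CPM in the B10 libraries, and at 75635, 46881 and 68705 in B10_insHEL. In NOD it was 74955, 75217 and 71159 CPM, and in NOD_insHEL 76137, 76142 and 83179. The 3 B10 libraries and B10_insHEL replicate 2 are thus the 4 lowest, and the other 8 lie together irrespective of strain. Group means were 43867 ± 839 CPM (B10), 63740 ± 15006 (B10_insHEL), 73777 ± 2271 (NOD) and 78486 ± 4064 (NOD_insHEL), each with its SD over n = 3. In that order B10_insHEL and NOD overlapped, while the steps from B10 to B10_insHEL and from NOD to NOD_insHEL did not.

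Ins2 followed the same outline with smaller steps. Its levels were 125480, 105519 and 114940 CPM in B10 and 154674, 115643 and 153991 in B10_insHEL. NOD libraries had 153650, 158884 and 164972 CPM, and NOD_insHEL libraries 157660, 154037 and 182263. Again B10_insHEL replicate 2 lay among the B10 libraries, and the remaining 8 overlapped. Means were 115313 ± 9986 CPM (B10), 141436 ± 22340 (B10_insHEL), 159168 ± 5666 (NOD) and 164654 ± 15357 (NOD_insHEL), each with its SD over n = 3, and each group overlapped its neighbour in this order.

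Iapp was ordered by strain instead. It had 28909, 25578 and 28682 CPM in B10 and 35089, 35978 and 37969 in B10_insHEL. Levels were 20222, 16901 and 19399 CPM in NOD and 24341, 24007 and 21527 in NOD_insHEL. All 6 libraries of NOD background lay below all 6 of B10 background, and within each strain all 3 transgenic libraries lay above the 3 without the transgene. The means of 18841 ± 1730 CPM in NOD, 23292 ± 1537 in NOD_insHEL, 27723 ± 1861 in B10 and 36345 ± 1475 in B10_insHEL (SD, n = 3 each) form 4 steps with no overlap between neighbours.

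**Figure D1:**
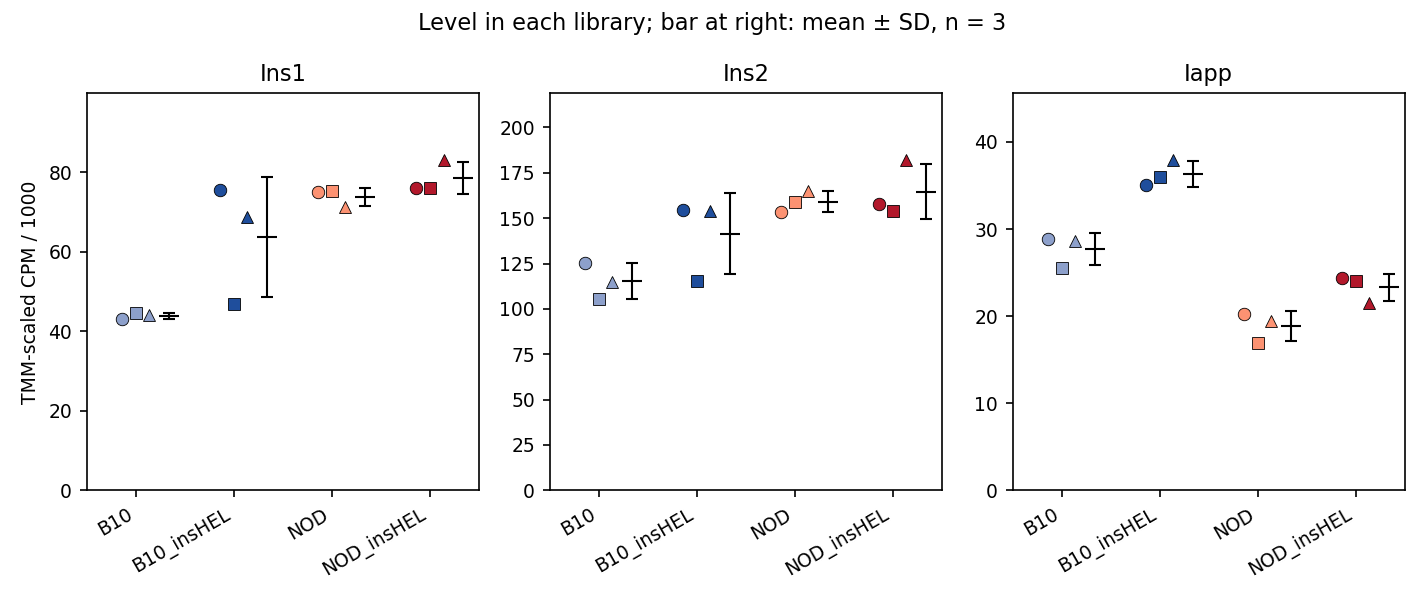
TMM-scaled CPM of Ins1, Ins2 and Iapp (vertical axes, CPM divided by 1000, from 0) in the 12 libraries by group; circles, squares and triangles are replicates 1, 2 and 3, and the black bar is the mean ± SD of 3 libraries. B10_insHEL replicate 2 sits with the B10 libraries for Ins1 (46881 CPM) and Ins2 (115643), while for Iapp it sits with its own group (35978).

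Averaged over the transgene, all 3 genes passed between the strain backgrounds, where 33.3% of all genes tested passed, 15.7% higher and 17.6% lower. Ins1 was higher in NOD background by 0.53 (SE 0.10, adjusted p = 4.45e-04, 1.44-fold) and Ins2 by 0.34 (SE 0.10, adjusted p = 0.00867, 1.27-fold). Iapp was lower, at -0.60 (SE 0.08, adjusted p = 1.12e-05, 0.660-fold). Only Iapp had no overlap between the 6 and 6 libraries, and the share of all genes without such overlap is not given here. For a single gene, whole islets do not tell a change in beta cell number from a change in RNA per beta cell. These differences rank 3345th for Ins1, 5635th for Ins2 and 2801st for Iapp among the 15352 genes by size.

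Without the transgene, NOD against B10, the differences were 0.75 for Ins1 (SE 0.14, adjusted p = 6.27e-04, 1.68-fold), 0.47 for Ins2 (SE 0.13, adjusted p = 0.0136, 1.38-fold) and -0.56 for Iapp (SE 0.12, adjusted p = 0.00135, 0.680-fold). Here 28.4% of all genes passed (13.5% higher and 14.9% lower), and none of the 3 overlapped between the groups, as for 23.8% of genes upward and 23.8% downward. The Ins2 call ended without B10 replicate 2 (0.38, adjusted p = 0.0901), B10 replicate 3 (0.44, adjusted p = 0.0689) or NOD replicate 3 (0.44, adjusted p = 0.0563).

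Within transgenic islets, NOD_insHEL against B10_insHEL, 1 of the 3 genes passed, where 12.1% of all genes did (6.5% lower). Iapp differed by -0.64 (SE 0.12, adjusted p = 6.67e-04), whereas Ins1 was at 0.30 (SE 0.14, adjusted p = 0.186) and Ins2 at 0.22 (SE 0.13, adjusted p = 0.322). Iapp did not overlap between the groups, as held for 14.2% of genes downward. Ins1 did not overlap either, as held for 12.8% of genes upward, but its highest B10_insHEL library (75635 CPM) was just under the lowest NOD_insHEL library (76137 CPM). Without B10_insHEL replicate 2, which is the transgenic library rich in acinar markers, Ins1 was at 0.12 (adjusted p = 0.631), Ins2 at 0.0921 (adjusted p = 0.744) and Iapp at -0.65 (SE 0.13, adjusted p = 0.00183). Iapp was thus lower by a similar amount among libraries low in acinar markers, and no strain difference of the insulin genes was detected among them.

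**Figure D2:**
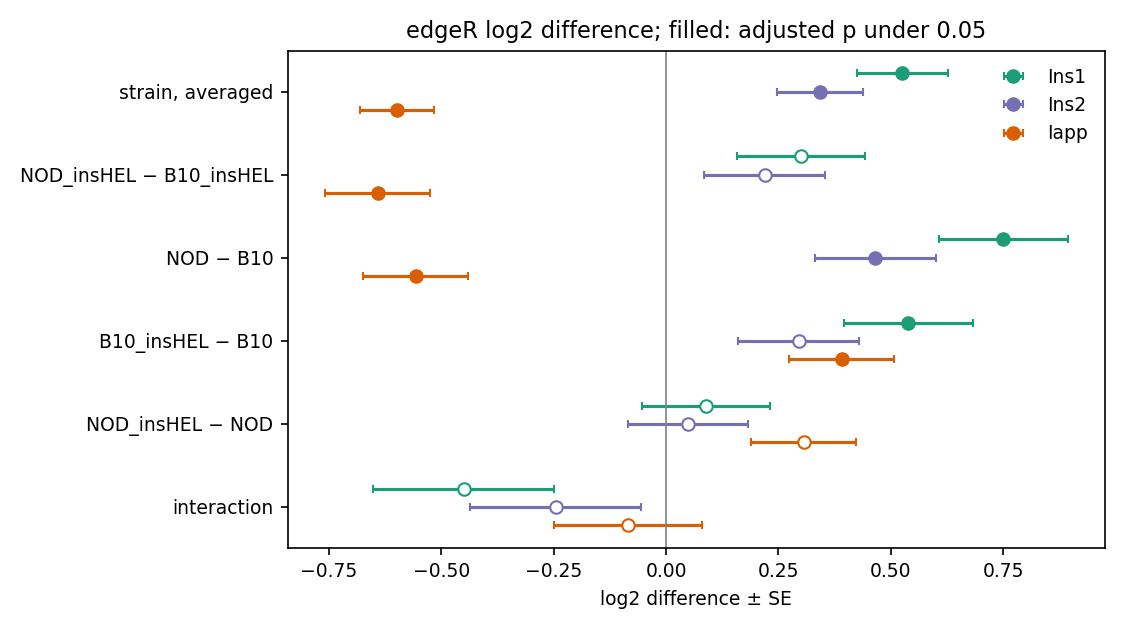
Log2 difference ± SE from edgeR (horizontal axis) for Ins1, Ins2 and Iapp in the 6 comparisons (rows); filled circles have an adjusted p under 0.05. Iapp lies between -0.64 and -0.56 in the 3 strain comparisons, while Ins1 ranges from 0.30 to 0.75 in them.

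The insulin genes also divided the libraries as the acinar markers did. Ins1 was at 42977 to 46881 CPM in the 4 libraries rich in acinar markers and at 68705 to 83179 in the other 8. Ins2 was at 105519 to 125480 CPM against 153650 to 182263. For both genes these ranges do not overlap. The 15 acinar markers held under 0.5% of counts, which is not the share of all acinar RNA. Iapp did not divide that way, with 25578 to 35978 CPM in the 4 libraries and 16901 to 37969 in the 8. With a score of the 15 acinar markers as a covariate, the averaged strain difference was 0.26 for Ins1 (adjusted p = 0.152), 0.17 for Ins2 (adjusted p = 0.396) and -0.63 for Iapp (adjusted p = 6.72e-04). In that fit NOD against B10 gave 0.32 for Ins1 (adjusted p = 0.273) and 0.19 for Ins2 (adjusted p = 0.577). What part acinar RNA or a preparation batch has in the Ins1 and Ins2 differences was not tested, and in B10 they cannot be told apart from the group.

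**Figure D3:**
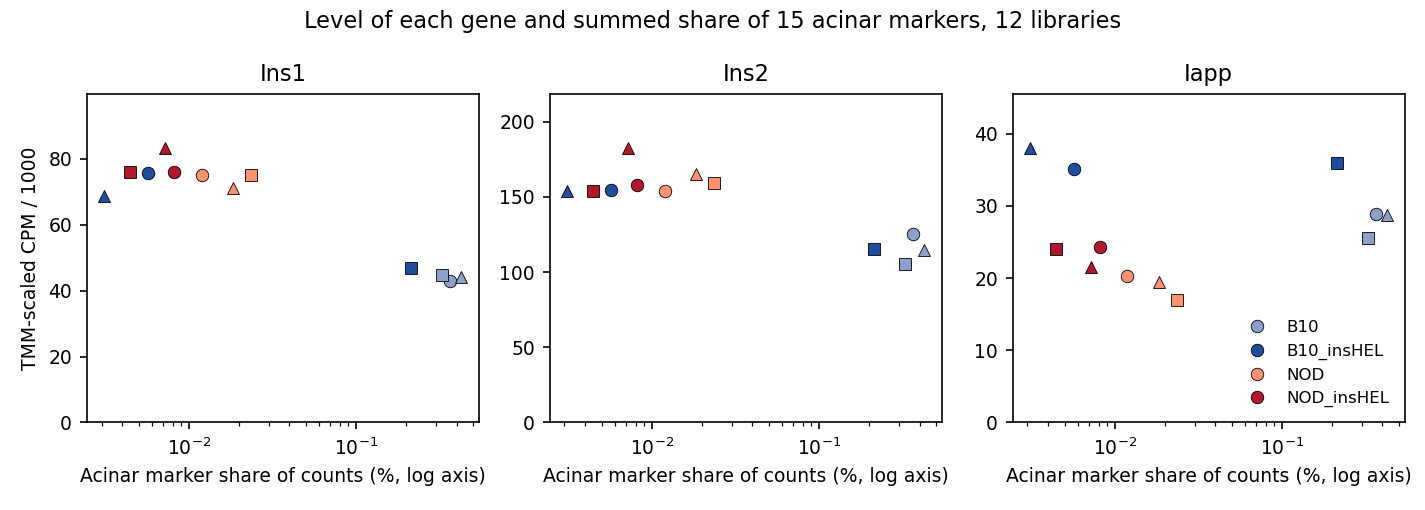
TMM-scaled CPM of each gene (vertical axes, CPM divided by 1000, from 0) against the summed share of counts of 15 acinar markers (horizontal axis, percent, log scale) in 12 libraries, coloured by group, with circles, squares and triangles for replicates 1, 2 and 3. Ins1 and Ins2 fall into a low set of 4 libraries at 0.215% or more and a high set of 8, and Iapp separates by colour instead.

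Beta cells are the source of the insulins and the main source of Iapp, which delta cells of the mouse islet also express. All 3 delta cell markers were higher in NOD background in the averaged comparison, where 15.7% of all genes were higher. In NOD against B10 0 of 3 passed, and in NOD_insHEL against B10_insHEL 1 of 3 was higher. Over all genes 28.4% and 12.1% passed there. The part of delta cells in the Iapp values was not tested. The 8 beta cell markers fixed apart from the 3 genes all passed the filter, and their summed level was 7900 to 8326 CPM in B10, 6311 to 8539 in B10_insHEL, 5933 to 6952 in NOD and 7517 to 8149 in NOD_insHEL. Averaged over the transgene, 2 of these 8 markers were higher and 2 lower in NOD background, where 33.3% of all genes passed. The part of beta cell number in their sum was not tested. Per unit of this sum, Ins1 was 5.45 ± 0.0932 (B10), 8.83 ± 2.06 (B10_insHEL), 11.4 ± 1.10 (NOD) and 10.1 ± 0.875 (NOD_insHEL), each with its SD over n = 3. Iapp on the same scale was 3.45 ± 0.328, 5.10 ± 0.956, 2.91 ± 0.489 and 3.00 ± 0.163 in the same order (SD, n = 3 each). On this scale NOD overlapped B10, whereas NOD_insHEL stayed below B10_insHEL without overlap. Lymphocyte markers were near 0: 1 of 7 passed the filter, and Cd3e and Ms4a1 had 0 counts in all 12 libraries.

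The ratio of raw counts between 2 of the genes needs no library scaling. Iapp to Ins1 was 0.673, 0.573 and 0.652 in B10 and 0.464, 0.767 and 0.553 in B10_insHEL. In NOD it was 0.270, 0.225 and 0.273, and in NOD_insHEL 0.320, 0.315 and 0.259. Every library of NOD background lay below every library of B10 background, including the 2 B10_insHEL libraries low in acinar markers (0.464 and 0.553). Both insulin genes were lowest in the 4 libraries rich in acinar markers, all of B10 background. The size of the strain difference in either ratio with Iapp is thus not free of that split. The strain difference was -1.14 on the log2 scale, or 0.454-fold (two-sided exact permutation within transgene status over 400 arrangements, p = 0.005, the smallest it can give, adjusted p = 0.015 over 6 ratio tests).

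Iapp to Ins2 was 0.230, 0.242 and 0.250 in B10 and 0.227, 0.311 and 0.247 in B10_insHEL. The NOD libraries had 0.132, 0.106 and 0.118, and the NOD_insHEL libraries 0.154, 0.156 and 0.118. This ratio also separated the strains completely, with a log2 difference of -0.95, or 0.518-fold (exact permutation p = 0.005, adjusted p = 0.015). The separation held in both transgene states for both ratios, with -1.31 and -1.03 in NOD against B10 and -0.97 and -0.87 in NOD_insHEL against B10_insHEL (exact permutation p = 0.1 each, the smallest that 3 against 3 allows).

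The balance of the 2 insulin genes moved less. Ins1 to Ins2 was 0.343, 0.423 and 0.383 in B10, and 0.489, 0.405 and 0.446 in B10_insHEL. It was 0.488, 0.473 and 0.431 in NOD, and 0.483, 0.494 and 0.456 in NOD_insHEL. NOD lay above B10 without overlap, but the transgenic groups overlapped. The strain difference was 0.19 on the log2 scale, or 1.14-fold (exact permutation p = 0.02, adjusted p = 0.04), and this call was lost without any of 9 of the 12 libraries, those other than B10 replicate 2, B10_insHEL replicate 1 and NOD_insHEL replicate 3 (adjusted p up to 0.11). Transgene status changed none of the 3 ratios past the threshold, with 0.13 for Ins1 to Ins2 (exact permutation p = 0.085, adjusted p = 0.128), 0.0509 for Iapp to Ins1 (p = 0.755) and 0.18 for Iapp to Ins2 (p = 0.115, adjusted p = 0.138). The Iapp to Ins1 difference turned to -0.0491 without B10_insHEL replicate 2.

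**Figure D4:**
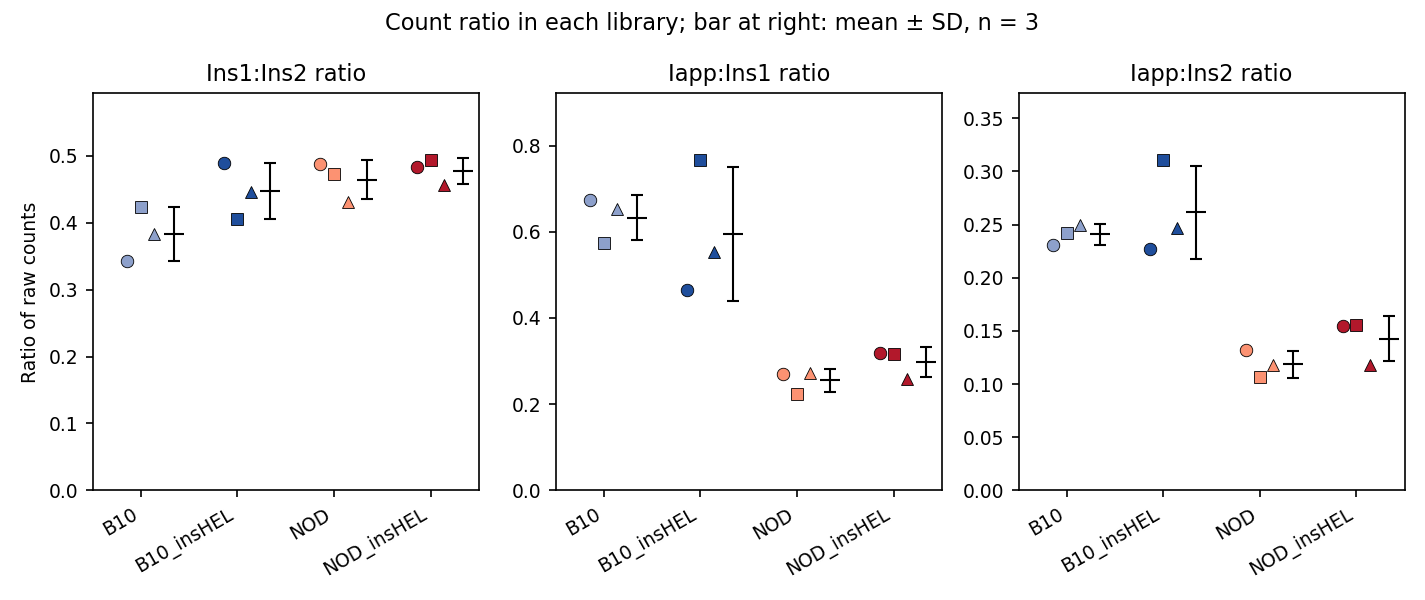
Ratio of raw counts (vertical axes, from 0) for the 3 pairs of genes in the 12 libraries by group, with circles, squares and triangles for replicates 1, 2 and 3 and the black bar for the mean ± SD of 3 libraries. Both ratios with Iapp are lower in all 6 libraries of NOD background, while Ins1 to Ins2 overlaps between the strains.

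Ins1 and Iapp were higher in B10_insHEL than in B10. The part of the transgene was not separated from that of acinar content or a possible batch. B10_insHEL against B10 gave 0.54 for Ins1 (SE 0.14, adjusted p = 0.0264, 1.45-fold) and 0.39 for Iapp (SE 0.12, adjusted p = 0.0468, 1.31-fold), while Ins2 was at 0.29 (SE 0.13, adjusted p = 0.202). So 2 of 3 genes passed where 6.85% of all genes did (4.09% higher and 2.76% lower), and these 2 had no overlap between the groups, as did 13.1% of genes upward. Neither call held in every alternative. The Iapp call held without NOD replicate 2 or NOD_insHEL replicate 3 and ended without any other single library (adjusted p up to 0.223). The Ins1 call ended without any one B10 library, B10_insHEL replicate 1 or B10_insHEL replicate 3 (adjusted p up to 0.114), and all 3 B10 libraries are rich in acinar markers. Without B10_insHEL replicate 2 the values were 0.72 for Ins1 (adjusted p = 9.04e-04), 0.42 for Ins2 (adjusted p = 0.0484) and 0.40 for Iapp (adjusted p = 0.0581). Scaling by library totals alone ended both calls (0.39 for Ins1, adjusted p = 0.0557, and 0.25 for Iapp, adjusted p = 0.152), as did the acinar score as a covariate (0.0636 for Ins1, adjusted p = 0.938, and 0.34 for Iapp, adjusted p = 0.433).

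In NOD the transgene changed none of the 3 past the threshold, where 7.06% of all genes passed (3.88% higher and 3.18% lower). NOD_insHEL against NOD gave 0.31 for Iapp (SE 0.12, adjusted p = 0.112), 0.0893 for Ins1 (adjusted p = 0.757) and 0.0489 for Ins2 (adjusted p = 0.865), the last 2 turning negative under library totals alone (-0.00105 and -0.0417). The 95% intervals of these log2 differences ran from 0.0639 to 0.55 for Iapp, from -0.21 to 0.39 for Ins1 and from -0.23 to 0.33 for Ins2. Iapp and Ins1 had no overlap between the groups, as did 13.3% of genes upward. With DESeq2 the Iapp difference, 0.31, passed (adjusted p = 0.0185).

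The effect of the transgene was not shown to differ between the strains for any of the 3 genes. The interaction (the difference of the NOD transgene comparison less the B10 one) was -0.45 for Ins1 (SE 0.20, adjusted p = 0.381), -0.25 for Ins2 (adjusted p = 0.630) and -0.0847 for Iapp (adjusted p = 0.875), in a comparison where 0.0586% of all genes passed. At an unadjusted edgeR p under 0.05, 12.2% of genes and 1 of the 3 passed. That gene was Ins1, whose 95% interval ran from -0.87 to -0.0303. For Iapp the interval ran from -0.43 to 0.26. DESeq2 called 78 genes in all for the interaction, and 0 of the 3.

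The spread between mice of a group differed among the 3 genes. Ins1 had a coefficient of variation of 1.91% in B10, 3.08% in NOD, 5.18% in NOD_insHEL and 23.5% in B10_insHEL. For the 45 genes above 1000 CPM the median coefficient was 7.75%, 8.03%, 10.3% and 13.4% in these groups. Ins1 was therefore below that median in 3 groups and above it in B10_insHEL, where replicate 2 stood apart. Iapp was at 4.06% in B10_insHEL and at 6.60 to 9.18% in the other 3.

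Genes whose pattern over the 12 libraries was most like that of each member were found by the root mean square difference of centred log2 CPM among 9253 genes. For Ins1 they were Mrps34, a mitochondrial ribosomal protein gene (0.0996), Fam214b (0.130) and Camk2n2, an inhibitor of calcium/calmodulin kinase (0.132), against a median of 0.425 over all genes, and Ins2 ranked 14th at 0.157. From Ins2, Ins1 ranked 212th at that same distance. For Ins2 they were Spag7 (0.0787), the calpain small subunit Capns1 (0.0811) and Mrpl41 (0.0923). Iapp was closest to Mettl7a1 (0.0893), Cltrn (0.106), which encodes collectrin, a beta cell membrane protein, and Chp1 (0.113), with Ins2 and Ins1 at ranks 7093 and 8274. Cltrn had 879 CPM (B10), 1057 (B10_insHEL), 612 (NOD) and 763 (NOD_insHEL), which is the order of the Iapp means. These distances describe the libraries, which share the acinar split, and carry no test.

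Factors that act on insulin and Iapp promoters went in both directions. Of 26 listed transcription factor genes 25 were tested. Averaged over the transgene 6 were higher in NOD background, 4 were lower and 15 did not pass, with a median log2 difference of 0.0268 against 0.0143 over all genes. Over all genes 15.7% were higher and 17.6% lower, so the share of this list that passed was near the background. The largest rises were in Mafa, a beta cell activator of insulin genes (0.86, SE 0.26, adjusted p = 0.0307), Tcf3 (0.42, SE 0.11, adjusted p = 0.00464) and the LIM-domain cofactor Ldb1 (0.33, SE 0.08, adjusted p = 0.00391). Mafa had 72.5 ± 16.0 CPM (B10), 50.7 ± 23.4 (B10_insHEL), 106.7 ± 29.5 (NOD) and 112.7 ± 1.02 (NOD_insHEL), each with its SD over n = 3. Its call ended without B10 replicate 2 or 3, NOD replicate 2 or any NOD_insHEL library (adjusted p up to 0.0714), and with islet number as a covariate (0.92, adjusted p = 0.0856). The largest falls were in the ETS factor Etv1 (-0.80, SE 0.13, adjusted p = 8.87e-05), Rfx6, which beta cells need to keep their identity (-0.30, adjusted p = 0.00991), and Glis3, an activator of insulin transcription (-0.29, adjusted p = 0.0243). Glis3 was no longer called when B10_insHEL replicate 2, the third NOD mouse or the third NOD_insHEL mouse was left out (adjusted p up to 0.0701). With the acinar score as a covariate the list had 0 higher and 1 lower, Etv1 at -0.71 (adjusted p = 0.00886). Over all genes 1091 were higher and 1337 lower in that fit.

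Averaged over the transgene, 10 of the 20 genes of prohormone processing and the secretory granule were lower in NOD background. All 20 were tested, 3 were higher and 7 did not pass. Over all genes 17.6% were lower and 15.7% higher. The median of the list was -0.19. In NOD against B10 8 were lower and 4 higher (median -0.25), where 14.9% of all genes were lower and 13.5% higher. In NOD_insHEL against B10_insHEL 3 were lower, 2 higher and 15 did not pass (median -0.075). There 12.1% of all genes passed (6.5% lower). The values below are from the averaged comparison. Scg2, the secretogranin II gene, had 10719 ± 580 CPM (B10), 13276 ± 478 (B10_insHEL), 4131 ± 269 (NOD) and 6572 ± 1364 (NOD_insHEL), each with its SD over n = 3, a difference of -1.19 (SE 0.09, adjusted p = 5.26e-09). Vgf, a granule peptide precursor (-0.84, adjusted p = 8.09e-04), and Ptprn2, a granule membrane phosphatase homologue (-0.67, adjusted p = 3.06e-06), were next. Upward, Scg5, which encodes the chaperone of the prohormone convertase PC2, had 779 ± 45.8, 980 ± 80.4, 1514 ± 137 and 2270 ± 141 CPM in the order B10, B10_insHEL, NOD and NOD_insHEL, given as mean ± SD with n = 3 (1.09, SE 0.08, adjusted p = 1.11e-09). Granuphilin, Sytl4, rose by 0.72 (adjusted p = 3.24e-07) and the exocytosis GTPase Rab3a by 0.29 (adjusted p = 0.0287). Rab3a lost its call without B10 replicate 1 or 3, B10_insHEL replicate 2, NOD replicate 2 or 3 or NOD_insHEL replicate 1 or 3 (adjusted p up to 0.0836). In the averaged comparison the list had 2 higher and 6 lower with the acinar score as a covariate, Rab3a no longer among them (adjusted p = 0.787). Without B10_insHEL replicate 2 it had 2 higher and 8 lower. Over all genes 1091 were higher and 1337 lower with the score, and 2178 and 2474 without that library.

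Part of the granule list rose with the transgene. In B10_insHEL 7 of 20 rose, 1 fell and 12 missed the threshold (median 0.33 against -3.54e-04 over all genes), where 4.09% of all genes were higher and 2.76% lower. In NOD_insHEL 12 were higher, 0 lower and 8 did not pass (median 0.43 against -0.00621), where 3.88% of all genes were higher and 3.18% lower. Scaled by library totals alone, which moved the median of all genes in B10_insHEL against B10 by -0.14, the counts were 6 higher and 2 lower in B10 and 10 higher and 1 lower in NOD. Over all genes that scaling called 332 higher and 1261 lower in B10, and 285 higher and 860 lower in NOD. In B10 the largest rises were in Rab3d (0.70, adjusted p = 0.00453), the chromogranin gene Chgb (0.64, adjusted p = 0.00198) and Rab3a (0.63, adjusted p = 0.00794, but 0.0579 without B10 replicate 3). Sytl4 fell (-0.42, adjusted p = 0.0213), a call that ended without any one B10 library or B10_insHEL replicate 2 (adjusted p up to 0.0752). In NOD they were Vgf (1.23, SE 0.24, adjusted p = 0.00912), Pcsk1, the convertase that makes the first cut in proinsulin and also acts on pro-amylin (0.74, SE 0.11, adjusted p = 0.00220), and Scg2 (0.67, adjusted p = 0.00759). Leaving out replicate 1 or 2 of NOD_insHEL ended the calls of Vgf (adjusted p up to 0.0796) and Scg2 (adjusted p up to 0.0593), while Pcsk1 kept its call without any one of the 12 libraries. Pcsk1 had 582 ± 35.3 CPM (B10), 736 ± 35.5 (B10_insHEL), 414 ± 43.7 (NOD) and 690 ± 85.2 (NOD_insHEL), each with its SD over n = 3. With the acinar score as a covariate 0 of 20 were higher and 1 lower in B10, but 10 higher and 1 lower in NOD. Without B10_insHEL replicate 2 the counts were 10 and 0 in B10 and 13 and 1 in NOD. That omission also raised the calls over all genes, from 1052 to 1566 in B10 and from 1084 to 1522 in NOD. Without NOD_insHEL replicate 1 or 2 the calls over all genes in NOD were 107 or 171. With the acinar score the 3 named rises in B10 were not called, at 0.49 for Rab3d, 0.51 for Chgb and 0.23 for Rab3a (adjusted p = 0.149 to 0.648), while those named in NOD were. The interaction called 0 of the 20 with edgeR and 0 with DESeq2, and 5 had an unadjusted edgeR p under 0.05, as had 12.2% of all genes.

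**Figure D5:**
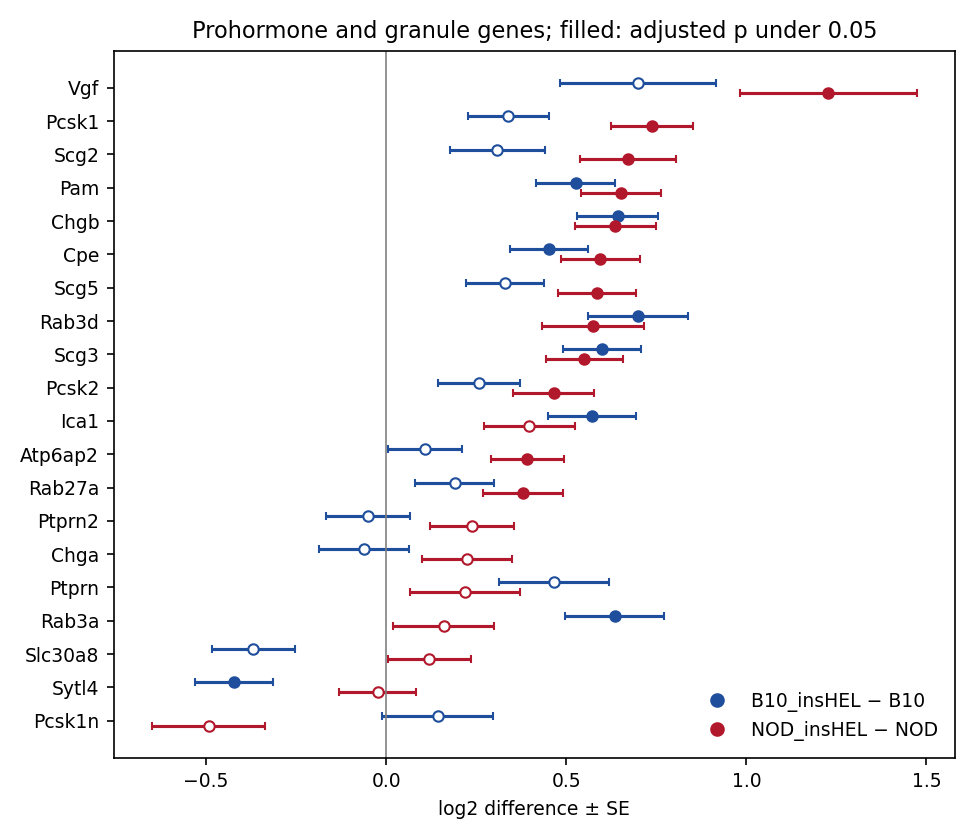
Log2 difference ± SE (horizontal axis) of the 20 prohormone processing and granule genes (rows) for B10_insHEL against B10 in blue and NOD_insHEL against NOD in red; filled circles have an adjusted p under 0.05. In NOD 12 genes are filled to the right of 0, and in B10 7 are to the right and Sytl4 to the left.

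Of 9 tested genes whose products bind preproinsulin mRNA or fold new proteins, 1 was higher and 3 were lower in NOD background (median -0.0359), where 33.3% of all genes passed. Tia1, a stress granule RNA-binding protein gene, was higher by 0.33 (adjusted p = 0.00839), or 0.24 with islet number as a covariate (adjusted p = 0.0929). Lower were the pancreatic disulfide isomerase gene Pdia2 (-2.85, adjusted p = 0.00649), Hdlbp, encoding vigilin (-0.44, adjusted p = 0.00551), and Elavl4, encoding HuD, which binds Ins2 mRNA (-0.24, adjusted p = 0.0382). Pdia2 was at 1.04 ± 0.143 CPM in B10 and under 0.3 in the other groups, and its call ended without B10_insHEL replicate 2 (adjusted p = 0.0516). Elavl4 lost its call without 9 of the 12 libraries, those other than B10_insHEL replicates 1 and 3 and the third NOD_insHEL library (adjusted p up to 0.126). In the presence of the transgene, the endoplasmic reticulum isomerase gene Pdia4 rose in B10 (1.00, SE 0.17, adjusted p = 0.00260) and in NOD (0.63, SE 0.17, adjusted p = 0.0377). The NOD call ended without B10 replicate 1, any NOD library, or replicate 1 or 2 of NOD_insHEL (adjusted p up to 0.153). Hdlbp rose in B10 (0.59, adjusted p = 0.0328), lost without B10 replicate 1 or 3, B10_insHEL replicate 2 or 3 or NOD replicate 1 (adjusted p up to 0.160). The poly(A)-binding protein gene Pabpc1 rose in NOD (0.44, adjusted p = 0.0288), lost without NOD replicate 2 or 3, or replicate 1 or 2 of NOD_insHEL (adjusted p up to 0.166). With the acinar score as a covariate the strain calls of Pdia2 (-2.01, adjusted p = 0.269), Hdlbp (-0.40, adjusted p = 0.102) and Elavl4 (-0.0107, adjusted p = 0.960) ended. So did the transgene calls of Pdia4 (0.86) and Hdlbp (0.65) in B10 and of Pdia4 (0.58) and Pabpc1 (0.39) in NOD, whose differences stayed of similar size.

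Among the transcription factors 3 of 25 passed with the transgene in each strain, near the 6.85% of all genes in B10 and 7.06% in NOD. Mlxipl, encoding the glucose-sensing factor ChREBP, fell in B10 (-0.54, adjusted p = 0.0162) and in NOD (-0.64, adjusted p = 0.00864), and had 381 ± 8.37 CPM (B10), 262 ± 29.5 (B10_insHEL), 381 ± 27.3 (NOD) and 246 ± 55.8 (NOD_insHEL), each with its SD over n = 3. The B10 call ended without B10 replicate 1 or 2 or B10_insHEL replicate 3 (adjusted p up to 0.0657), and the NOD call on leaving out replicate 1 or 2 of NOD_insHEL (adjusted p up to 0.0711). Crem, a cyclic AMP-responsive factor, rose by 0.45 in B10 (adjusted p = 0.0249, up to 0.135 without any one B10 library or B10_insHEL replicate 3) and by 0.41 in NOD (adjusted p = 0.0457, up to 0.200 and lost without 9 of the 12 libraries, those other than the B10_insHEL libraries). Nkx6-1, a beta cell identity factor, fell in B10 (-0.44, adjusted p = 0.0352), lost without any one B10 library or B10_insHEL replicate 1 or 2 (adjusted p up to 0.114). Ldb1 fell in NOD (-0.52, adjusted p = 0.0120), lost on leaving out replicate 1 or 2 of NOD_insHEL (adjusted p up to 0.0921). In each strain 22 of 25 did not pass. With the acinar score as a covariate the 3 genes in B10 were not called, at 0.39 for Crem, -0.33 for Mlxipl and -0.66 for Nkx6-1, and nor was Crem in NOD (0.38, adjusted p = 0.0721). The differences of Crem and Nkx6-1 were thus about as large or larger.

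The relatives of insulin and amylin, their receptors and the degrading enzyme made up a list of 20, of which 14 were tested. Averaged over the transgene 3 were higher in NOD background and 6 lower (median -0.11), where 15.7% of all genes were higher and 17.6% lower. Ramp2, a partner of the calcitonin-family receptors, had 13.8 ± 1.69 CPM (B10), 15.3 ± 1.60 (B10_insHEL), 30.8 ± 6.37 (NOD) and 26.8 ± 1.42 (NOD_insHEL), given as mean ± SD with n = 3 (0.98, SE 0.11, adjusted p = 1.27e-06). Its receptor partner Calcrl rose by 0.48 (adjusted p = 0.00197). Both are endothelial genes as well. Of 8 endothelial markers 6 were higher and 1 lower in this comparison, and 7 were higher in NOD against B10 (13.5% of all genes). In NOD_insHEL against B10_insHEL 0 were higher and 2 lower, where 12.1% of all genes passed. Their part in the Ramp2 and Calcrl values was not tested. Igf1 was higher by 0.50 (adjusted p = 0.0493), lost without 9 of the 12 libraries, those other than B10 replicate 1, B10_insHEL replicate 2 and NOD_insHEL replicate 3 (adjusted p up to 0.190). Adm2, an adrenomedullin relative, fell from 1.80 ± 1.01 CPM in B10 and 1.96 ± 0.359 in B10_insHEL to 0.175 ± 0.108 in NOD and 0.232 ± 0.206 in NOD_insHEL, given as mean ± SD with n = 3 (-3.54, SE 0.49, adjusted p = 1.17e-05). Irs2, the insulin receptor substrate, was lower, at -0.84 (adjusted p = 0.0309), lost without B10 replicate 1 or 2, B10_insHEL replicate 1 or 2, NOD replicate 1 or replicate 2 or 3 of NOD_insHEL (adjusted p up to 0.0758). Igf2r, which clears IGF2, was at -0.72 (adjusted p = 5.69e-05). The acinar score as a covariate ended the calls of Igf1, although its difference was then larger (0.75, adjusted p = 0.0643), and of Irs2 (-0.41, adjusted p = 0.439). With the transgene 0 of 14 passed in either strain by edgeR, where 6.85% of all genes passed in B10 and 7.06% in NOD. At an unadjusted edgeR p under 0.05 there were 1 in B10 and 3 in NOD, and DESeq2 called 0 and 1. The share of all genes at that unadjusted threshold is not given here, so those counts cannot be read against it.

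Among hormones of the islet other than insulin and amylin, Npy and Sst rose and Ghrl fell in NOD background. Averaged over the transgene 2 of 7 rose in NOD background, 1 fell and 4 missed the threshold, where 33.3% of all genes passed. Neuropeptide Y (Npy) rose by 3.48 (SE 0.42, adjusted p = 3.47e-04), from 10.1 ± 3.44 CPM in B10 and 6.20 ± 1.80 in B10_insHEL to 146 ± 46.9 in NOD and 59.2 ± 47.4 in NOD_insHEL (SD, n = 3 each). Sst, the delta cell hormone, was higher by 0.86 (adjusted p = 0.0228), a call that ended on leaving out the second B10_insHEL library, the third NOD library, or replicate 1 or 3 of NOD_insHEL (adjusted p up to 0.0554) or on adding the acinar score (adjusted p = 0.316). Ghrl fell by 6.23 on the fitted log2 scale, with 0.127 ± 0.0485 CPM in NOD (SD, n = 3) against 8.13 ± 5.52 in B10 (adjusted p = 3.21e-07). Gcg was at -0.22 (adjusted p = 0.741), Ppy at -0.67 (adjusted p = 0.214), Pyy at -0.57 (adjusted p = 0.132) and Ucn3 at 0.13 (adjusted p = 0.522, or 0.0455 at 0.35 with islet number as a covariate). With the transgene 0 of 7 passed in either strain by edgeR or DESeq2, where edgeR passed 6.85% of all genes in B10 and 7.06% in NOD. At an unadjusted edgeR p under 0.05 there were 0 in B10 and 2 in NOD. The share of all genes at that unadjusted threshold is not given here either.

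Genes near Ins2 and Iapp were compared between the strains. Within 250 kb of the Ins2 start 3 of 14 genes were tested; in the averaged strain comparison 0 passed by edgeR, 0 by DESeq2 and 0 at an unadjusted edgeR p under 0.05. Around Iapp 7 of 11 were tested, and 2 were higher in NOD background and 3 lower, where 15.7% of all genes were higher and 17.6% lower. Gm20400 had 937 counts over the 6 libraries of B10 background and 0 in all 6 of NOD background, at least 196-fold lower (against a floor of 3 counts over the group). The transporter genes Slco1a6 (1.40, adjusted p = 6.89e-08) and Slco1a5 (-1.39, adjusted p = 1.01e-04) moved in opposite directions. They are paralogs that can share reads, so their split is uncertain. Slco1a5 also rose with the transgene in B10 (1.11, adjusted p = 0.0207), lost without any one B10 library or B10_insHEL replicate 2 (adjusted p up to 0.151). Slco1a5 had 4.28 CPM (B10), 9.20 (B10_insHEL), 1.89 (NOD) and 3.15 (NOD_insHEL), which is the order of the Iapp means. Iapp lies inside its span on the opposite strand, and whether Iapp reads entered the Slco1a5 counts was not tested. Pyroxd1 rose by 0.35 (adjusted p = 0.00344) and Ldhb was lower, at -0.44 (adjusted p = 0.0170, or 0.318 with the acinar score as a covariate). Golt1b, a Golgi transport gene, rose with the transgene in B10 (0.61, adjusted p = 0.00215, or 0.124 with the acinar score) and in NOD (0.53, adjusted p = 0.00876, up to 0.0786 and lost without NOD_insHEL replicate 1 or 2).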

How the data were processed

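Per the labels' protocols, islet RNA of 12 mice was sequenced from poly(A) libraries that keep strand. The values the authors deposited are raw read counts, with genes named by Ensembl identifier. Per the submitters' processing notes the build is GRCm38 and the tools include HTSeq, TopHat2 2.0.8b, DESeq and cutadapt. Annotation release, strand setting and read length are not given in the sources used here. Symbols came from GENCODE vM21 for 36639 identifiers (95.0%), which hold 99.8% of counts.

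Counts were tested in R 4.3.3 with edgeR 4.0.16 (filterByExpr, TMM, 1 robust quasi-likelihood fit of 4 group means to 12 libraries, two-sided, Benjamini-Hochberg over 15352 genes). CPM use TMM-scaled totals. Count ratios were tested by exact permutation within strata. On simulated counts for the averaged strain comparison (15100 genes tested) the fit recovered 71 of 100 genes changed 1.5-fold and 98 of 100 changed 2-fold, with 18 false calls. Intervals on shares cover counting error only.

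The 3 genes, the gene lists and the rule for named genes were chosen with earlier results of these data known. The rule takes the 3 genes most like each member, up to 3 called genes per direction and list with the largest change in the averaged strain comparison and in each transgene comparison, all 7 other hormones, and genes within 250 kb. Markers of the other cell types are used as listed counts and summed levels. The construct itself was not analysed here. Replicate numbers in the labels do not mark shared animals; of 18 same-numbered pairs 0 had deviations correlated above 0.1, so replicates were not treated as paired. DESeq2 1.42.0, other scalings, no filter, a replicate block, acinar score or islet number as covariates and each library left out in turn were alternatives.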

Additional observations from a re-analysis of the deposited data

How the results depend on the processing

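The strain calls of Iapp kept their direction and their side of the threshold under all 20 alternatives in each of the 3 strain comparisons. Leaving out each library in turn gave -0.64 to -0.56 for the averaged difference, -0.68 to -0.59 within transgenic islets and -0.63 to -0.49 for NOD against B10. The same omissions moved Ins2 in NOD against B10 from 0.38 to 0.53, Ins1 in B10_insHEL against B10 from 0.40 to 0.72, Ins2 there from 0.22 to 0.42, Iapp there from 0.32 to 0.42, Ins2 in NOD_insHEL against NOD from -0.0293 to 0.0944 (negative without NOD_insHEL replicate 3), the strain difference of Ins1 to Ins2 from 0.15 to 0.23, and the transgene difference of Iapp to Ins1 from -0.0491 to 0.13. Genes called ranged from 2868 to 4863 for NOD against B10, 428 to 1566 for B10_insHEL against B10, 107 to 1522 for NOD_insHEL against NOD and 2 to 162 for the interaction, the highest of each without B10_insHEL replicate 2. Counts moved by over 1.5 times without NOD replicate 3 for NOD against B10; without any B10 library or B10_insHEL replicate 3 for B10_insHEL against B10; without NOD replicates 2 or 3 or NOD_insHEL replicates 1 or 2 for NOD_insHEL against NOD; and for the interaction without any library other than B10_insHEL replicate 1 and NOD_insHEL replicate 3.

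With the acinar score as a covariate, genes called were 2428 for the averaged comparison (5107 in the fit without it), 1384 for NOD against B10 (4353), 240 for B10_insHEL against B10 (1052) and 50 for the interaction (9). Averaged, Ins1 was at 0.26 and Ins2 at 0.17; in NOD against B10 they were at 0.32 and 0.19; in B10_insHEL against B10 Ins1 was at 0.0636, Ins2 at -0.0066 and Iapp at 0.34; in NOD_insHEL against NOD Ins1 was at -0.0680 and Ins2 at -0.0520. Ucn3 turned to -0.26 in the averaged comparison. The cause was not tested. Scaled by library totals alone, B10_insHEL against B10 gave 0.39 for Ins1 (adjusted p = 0.0557), 0.25 for Iapp (adjusted p = 0.152) and 1593 genes, and NOD_insHEL against NOD gave -0.00105 for Ins1 and -0.0417 for Ins2. Of the called genes, 20.8% were then higher in B10_insHEL against B10 (59.7% with TMM) and 24.9% in NOD_insHEL against NOD (55.0% with TMM). Library totals without the 3 genes, an alternative chosen after seeing the data, gave 0.31 for Iapp in B10_insHEL against B10 (adjusted p = 0.0854) and -0.0024 for Ins1 and -0.0424 for Ins2 in NOD_insHEL against NOD. The higher share of calls was then 62.4% averaged (47.1% with TMM), 57.3% within transgenic islets (46.1%), 62.6% for NOD against B10 (47.4%), 36.4% for B10_insHEL against B10 and 26.4% for NOD_insHEL against NOD.

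With the islet number as a covariate, Iapp in B10_insHEL against B10 was at 0.41 (adjusted p = 0.0777) and the interaction called 5 genes. The interaction called 161 genes with no filter and 78 with DESeq2, which also called Iapp in NOD_insHEL against NOD (0.31, adjusted p = 0.0185). With the replicate number as a block, which pairs same-numbered samples, Iapp in B10_insHEL against B10 was at 0.39 (adjusted p = 0.0546), and over 6 pairs, whose smallest exact permutation p is 0.03125, the strain differences were 0.19 for Ins1 to Ins2 (adjusted p = 0.125), -1.14 for Iapp to Ins1 and -0.95 for Iapp to Ins2 (adjusted p = 0.0938 for both). No other call of the 3 genes changed with the block. Among the named genes of the lists, the block ended the calls of Mafa (0.90, adjusted p = 0.0522), Igf1 (0.49, adjusted p = 0.0739) and Crem in NOD_insHEL against NOD (0.41, adjusted p = 0.0571), and Pyy became called (-0.56, adjusted p = 0.00246). In the check of pairing, 4 of 12 libraries correlated best with their own number. Without mitochondrially encoded genes, Ins1 took 4.75% of counts in B10 and 7.90% in NOD, and Ins2 took 17.1% in NOD. Islet number as a covariate also ended the averaged calls of Igf1 and Rab3a and, in B10_insHEL against B10, those of Crem, Nkx6-1, Hdlbp, Sytl4 and Slco1a5. Library totals alone ended those of Igf1, Crem and Hdlbp and, in NOD_insHEL against NOD, of Crem, Pdia4 and Pabpc1. Totals without the 3 genes ended those of Glis3, Elavl4, Crem, Pdia4 in NOD and Pabpc1. Igf1 was also lost with RLE factors and DESeq2, and Irs2 with no filter. Of 50 named calls from the gene lists, those with a call lost by leaving out a library are given beside their values; the acinar score kept 17 of 30 strain calls, 2 of 11 in B10_insHEL against B10 and 6 of 9 in NOD_insHEL against NOD.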
